A study of Mus musculus with 556 samples.

Results

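The regions described here are the 400 windows of 100 kb, of 24022 with a value on the mouse autosomes, at which the signal for contact with the nuclear lamina stood highest in paternal over maternal pronuclei of the zygote. They were chosen by the measured values themselves, the OE of pronuclei without Kdm5b (below): for each window, or bin, the log2 of the mean signal in paternal pronuclei over that in maternal pronuclei was taken with 0.25 added to both, and the 400 highest were kept. The signal is from DamID, in which the bacterial adenine methyltransferase Dam is fused to lamin B1 and the DNA it methylates in living nuclei is amplified and sequenced. Dam alone, which methylates accessible chromatin, is the control. No pronuclei with Dam alone were among the cells used here. The parental differences below are therefore in Dam-lamin B1 signal that is not set against Dam. Whether accessibility differed between the parents was not tested. The deposited value, OE, is a ratio of observed to expected reads per bin, so that 1 is the level expected.

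All pronuclei came from zygotes that received mRNA of Dam-lamin B1 fused to a degron that auxin triggers, and all were freed of auxin for 6 to 8 h, which limits methylation to that time. They were separated late in the zygotic cycle and told apart by size and by position relative to the second polar body, and 1 pronucleus per zygote was taken. The choice used 15 paternal and 10 maternal pronuclei without Kdm5b. The check used pronuclei of zygotes also injected with mRNA of Kdm5b, a demethylase of histone H3 lysine 4, at 2 µg/µl, 18 h after hCG: 19 paternal and 19 maternal with wild-type Kdm5b, and 6 paternal and 13 maternal with mutant Kdm5b. The sources used here do not say what the mutation changes. Both Kdm5b groups had 5 ng/µl of Dam-lamin B1 mRNA, whereas no dose is given for the pronuclei without Kdm5b. The strain label of pronuclei is C57BL/6, with eggs and sperm of F1 mice of CBA and C57BL/6J; whole zygotes and later embryos are labelled as from C57BL/6 females and CAST/EiJ males, oocytes as C57BL/6, and ES cells as from a cross of 129/Sv and CAST/EiJ. Whole zygotes without Kdm5b had 5 ng/µl of Dam-lamin B1 mRNA or 20 ng/µl of Dam mRNA at 21 h after hCG, so that construct and dose differ together; 14 with wild-type and 9 with mutant Kdm5b were treated as the Kdm5b pronuclei were. Further zygotes with Dam-lamin B1 had aphidicolin (n = 9) or DMSO (n = 11), or mRNA of wild-type (n = 12) or mutant Kdm4d (n = 10), with no dose given for zygotes. All injections also held mRNA of TIR1, which auxin-driven degradation needs, and of a membrane EGFP. Oocytes, whole zygotes and 2-cell and 8-cell embryos were likewise freed of auxin for 6 to 8 h, with Dam-lamin B1 and with Dam. No such time is given for ES cells.

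Lamina-associated domains are long, mostly gene-poor and silent stretches of chromatin that lie at the nuclear periphery in many cell types. After fertilisation the genomes of egg and sperm stay in separate pronuclei. The sperm genome exchanges its protamines for maternally stored histones, whereas the egg genome keeps histones and histone marks laid down during oocyte growth, among them broad H3K4me3 and H3K27me3. The pronuclei of 1 zygote therefore package their DNA differently.

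Dam methylates the adenine of GATC, so that a read arises only at this motif, which reads the same on both strands. The promoters of genes in 3 of the named bins are shown as an example of what the assay could sample: Sprr3, a cornified-envelope protein gene, and Prima1, the membrane anchor of acetylcholinesterase, from bins described with the tests, and Gab1, a signalling adaptor. They are RefSeq promoters in build GRCm38.p6 (mm10), from 250 bases before to 50 after the start, each on the minus strand and written 5′ to 3′, with GATC in capitals.
Sprr3, chr3:92458671-92458970: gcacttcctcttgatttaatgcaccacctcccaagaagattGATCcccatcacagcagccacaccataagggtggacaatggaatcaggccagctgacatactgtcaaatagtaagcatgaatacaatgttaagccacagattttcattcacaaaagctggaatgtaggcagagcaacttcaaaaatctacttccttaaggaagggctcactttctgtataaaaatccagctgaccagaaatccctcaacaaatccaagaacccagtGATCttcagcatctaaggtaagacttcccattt
Prima1, chr12:103242097-103242396: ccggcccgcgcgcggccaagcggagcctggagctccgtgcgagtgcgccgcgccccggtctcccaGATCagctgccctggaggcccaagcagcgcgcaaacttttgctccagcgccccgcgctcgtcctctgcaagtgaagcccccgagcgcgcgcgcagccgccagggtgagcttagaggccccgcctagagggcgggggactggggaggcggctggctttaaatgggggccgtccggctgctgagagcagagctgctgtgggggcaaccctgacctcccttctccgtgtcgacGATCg
Gab1, chr8:80880470-80880769: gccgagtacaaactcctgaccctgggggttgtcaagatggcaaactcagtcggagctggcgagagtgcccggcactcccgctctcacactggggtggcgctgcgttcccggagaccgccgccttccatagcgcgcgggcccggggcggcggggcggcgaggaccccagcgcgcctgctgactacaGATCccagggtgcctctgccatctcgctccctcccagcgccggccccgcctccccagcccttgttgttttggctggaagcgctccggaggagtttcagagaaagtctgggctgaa
The promoters of Sprr3 and Prima1 hold 2 such motifs each, and that of Gab1 holds 1. Of 363 RefSeq promoters whose start lies in the 400 bins, 191 (52.6%) hold GATC, against 14940 of 31347 (47.7%) in all bins with a value.

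By the choosing measure the bins ran from 5.49 to 1.55 on the log2 scale, with a median of 1.74, against a median of 0.09 over all bins. The last bins kept (chr2:143400001-143500000, chr18:29900001-30000000 and chr6:60600001-60700000) and the first left out (chr16:52100001-52200000, chr8:96600001-96700000 and chr5:81700001-81800000) all stood at 1.55. The mean OE over the 400 bins was 1.65 ± 0.215 in paternal pronuclei (SD, n = 15) and 0.285 ± 0.158 in maternal pronuclei (SD, n = 10). These levels follow from the choice and are a description. Pronuclei held 31433 to 385142 reads each, with a median of 83034.5, as recovered from the steps of the OE values. Of the 82 pronuclei, 81 had a profile closer to the mean of the other pronuclei of their labelled parent. The exception was maternal replicate 4 without Kdm5b, with a Pearson's r across bins of 0.34 with the paternal and 0.33 with the maternal mean. Its mean OE over the 400 bins was 0.677, and the other 9 maternal pronuclei ran from 0.109 to 0.350. It took part in the choice; without it, 312 of the 400 bins would have been chosen again, and of that other set 178 were called higher in paternal pronuclei with wild-type and 37 with mutant Kdm5b in the tests below.

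Much of the top of the ranking was thinly covered. The authors' expected number could be read as whole steps, with a median of 456 over all bins, and 41 of the 400 bins were below 228, which is 0.5 of that (28 bins), or had no step that could be found (13). An expected number of at least 228 was reached by 89.75% of the 400 and by 98.0% of all bins. Of the 10 bins ranked highest, 4 had no step and the other 6 had an expected number of 5 to 79. They include windows near the start of chromosomes 4 and 10 (chr4:1500001-1600000 and chr10:1500001-1600000), a bin with the secretoglobin genes Scgb2b15 and Scgb1b15 (chr7:32800001-32900000), a bin with Pramel36 (chr5:93900001-94000000), and bins with numbered gene models near the start of chromosome 14. Reads of multi-copy genes can be lost or shared in mapping, so the values of bins with such genes are uncertain. The windows on chromosomes 4 and 10, ranked 1 and 2 at 5.49 and 3.57, hold no coding gene. No step was found for either and neither could be tested in any comparison, so their values are uncertain too. Of these 10 bins, 2 could be tested with mutant Kdm5b, where 1 was called, and 5 with wild-type Kdm5b, where limma called none (none was higher and 2 were lower at an unadjusted p under 0.05).

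In pronuclei that played no part in the choice, the 400 bins stood higher in the paternal than in the maternal nucleus in both Kdm5b conditions. With wild-type Kdm5b their mean OE was 1.04 ± 0.102 in paternal pronuclei and 0.578 ± 0.132 in maternal pronuclei (SD, n = 19 each). The paternal values ran from 0.811 through a median of 1.06 to 1.21, and the maternal ones from 0.346 through 0.561 to 0.826, so that the ranges overlapped slightly at their ends. With mutant Kdm5b the mean was 1.30 ± 0.170 in paternal pronuclei (SD, n = 6) and 0.610 ± 0.115 in maternal pronuclei (SD, n = 13). Here the paternal values ran from 1.13 through 1.30 to 1.48 and the maternal ones from 0.429 through 0.617 to 0.793, without overlap. Over all other bins the means lay between 0.988 and 1.05 in these 4 groups. In the paternal nucleus with wild-type Kdm5b the 400 bins thus lay at the level of the other bins, 1.04 in both, and in the maternal nucleus they lay below it.

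**Figure D1:**
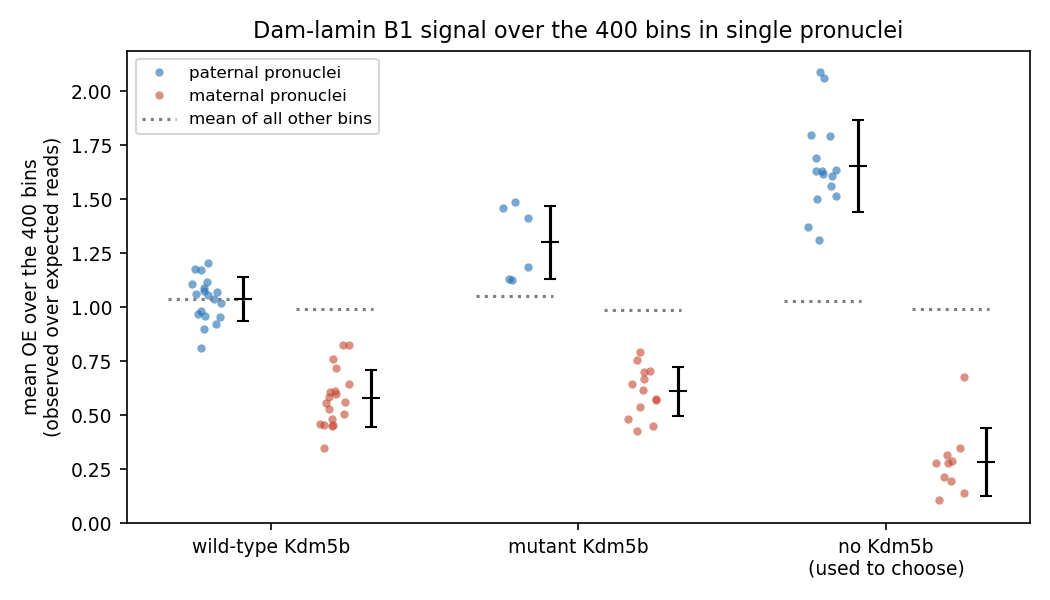
Mean OE over the 400 bins (y axis, observed over expected reads) in each pronucleus, 1 point per pronucleus, by Kdm5b condition; the bar beside each group is its mean ± SD and the dotted line the mean over all other bins. All paternal points lie above all maternal ones with mutant Kdm5b, whereas with wild-type Kdm5b the lowest paternal point, at 0.811, is below the highest maternal one, at 0.826. The pronuclei without Kdm5b, at the right, are those that chose the bins; the highest maternal point there, at 0.677, is replicate 4.

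Taken bin by bin, the log2 ratio of group means (0.25 added) had a median of 0.65 over the 400 bins with wild-type Kdm5b and 0.07 over all bins. With mutant Kdm5b the medians were 0.85 and 0.12. The ratio was above 0 in 347 of the 400 bins (86.75%) with wild-type Kdm5b, against 55.01% of all bins, and in 353 (88.25%) with mutant Kdm5b, against 57.1%. In 321 bins it was above 0 in both conditions and in 21 in neither. A ratio of at least 2-fold was found in 122 bins with wild-type Kdm5b, in 172 with mutant Kdm5b and in 68 in both, against 7.3%, 10.7% and 2.77% of all bins. The ratio was less often above 0 in the thinly covered bins: of the 41, it was so in 27 with wild-type and in 17 with mutant Kdm5b, against 320 and 336 of the other 359.

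**Figure D2:**
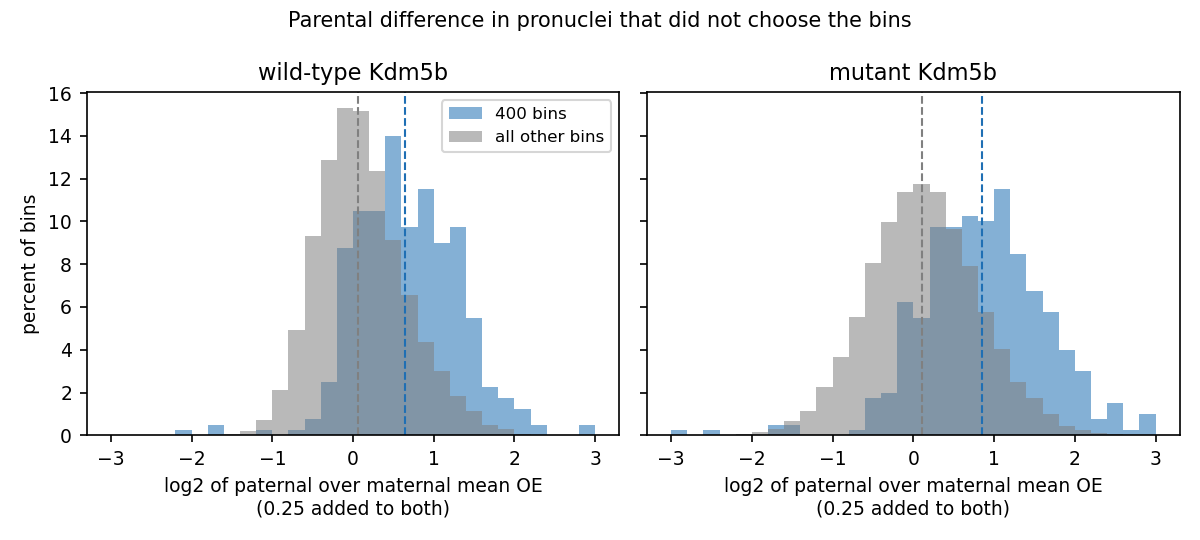
Distribution over bins (y axis, percent of bins) of the log2 ratio of paternal over maternal mean OE with 0.25 added (x axis; values beyond 3 in either direction are placed in the outermost bars), for the 400 bins in blue and all other bins in grey, with the medians dashed. The medians of the 400 bins are 0.65 with wild-type Kdm5b and 0.85 with mutant Kdm5b.

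The same difference was tested in each bin with limma on log2(OE + 0.25) across all bins with a value above 0 in at least 3 of the pronuclei compared, with Benjamini-Hochberg adjustment. Fold changes below are differences of mean logs on that scale and depend on the value added. Their median over the tested bins of the 400 was 0.90 with wild-type and 1.19 with mutant Kdm5b. The log2 ratios of group means had lower medians over the 400 bins, 0.65 and 0.85. No mother, litter or injection day is named for the pronuclei, and p-values measure the spread among these pronuclei only. With wild-type Kdm5b 386 of the 400 bins passed the filter, and 177 of the 400 (44.25%) were higher in paternal pronuclei at an adjusted p under 0.05, against 14.4% of all 23933 bins tested; none of the 400 was lower, by limma or by Fisher's exact test on the numbers of pronuclei with OE of at least 1. At an unadjusted p, 2 were lower (3.73% of all bins). With mutant Kdm5b 376 passed and 32 of the 400 (8.0%) were called higher, against 0.863% of all 23873 tested, and none lower by either test (1 at an unadjusted p, against 0.884% of all bins). At an unadjusted p under 0.05, 245 bins were higher with wild-type Kdm5b, where 24.7% of all bins were, and 186 with mutant Kdm5b, where 13.2% of all bins were. Of the bins called, 22 were called in both conditions, which is 12.4% of the 177 and 68.75% of the 32. Over all bins 3452 were called higher with wild-type and 206 with mutant Kdm5b. The overlap of those calls is not given here, so the shares of the 400 have no all-bin value beside them. Whether the parental difference itself depends on Kdm5b is tested separately below.

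Depth moved with the parent: the median was 104970 reads in paternal and 74910 in maternal pronuclei with wild-type Kdm5b, and 103859 in paternal and 52541 in maternal pronuclei with mutant Kdm5b. The median log2 difference over all tested bins was not 0 but 0.26 with wild-type and 0.41 with mutant Kdm5b, and the 400 bins stood 0.64 and 0.78 above these. With each pronucleus thinned to the same number of reads, the all-bin medians were 0.18 and 0.30 and the 400 bins stood 0.64 and 0.71 above them, but only 54 bins were called with wild-type Kdm5b (3.79% of all bins were) and 2 with mutant Kdm5b (0.0168% of all bins).

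Among the 10 bins with the smallest p with wild-type Kdm5b, log2 differences lay between 1.81 and 2.03 and adjusted p-values between 8.34e-06 and 5.81e-05; 2 of these 10 were called with mutant Kdm5b too. The bin with Prima1 (chr12:103200001-103300000) ran from 0 through a median of 1.41 to an OE of 3.65 in paternal pronuclei, against 0 through 0 to 1.37 in maternal ones. OE reached 1 in 16 of the 19 paternal and in 1 of the 19 maternal pronuclei, and the log2 difference was 2.03 ± 0.34 (SE; adjusted p = 9.17e-06, limma). With mutant Kdm5b its difference was 1.66 ± 0.48 (adjusted p = 0.0584). The bin with Ppargc1a, a coactivator of mitochondrial biogenesis (chr5:51700001-51800000), ran from 0 through 1.01 to 3.27 in paternal and from 0 through 0 to 0.790 in maternal pronuclei with wild-type Kdm5b. None of its 19 maternal pronuclei reached an OE of 1, against 11 of the 19 paternal ones (log2 difference 1.93 ± 0.34 SE, adjusted p = 2.1e-05). A bin with the secreted phospholipase genes Pla2g2c, Pla2g2f and Pla2g2d (chr4:138700001-138800000) had OE of 0.333 to 2.81 in paternal pronuclei, none at 0, while 9 of 19 maternal pronuclei were at 0.

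The bin with the midpoint of Alcam, a gene for a cell adhesion molecule of the immunoglobulin superfamily (chr16:52300001-52400000), was called in both conditions. With wild-type Kdm5b it ran from 0 through 0.914 to 1.94 in paternal pronuclei and was at 0 in 16 of 19 maternal ones, whose highest value was 1.11. With mutant Kdm5b the paternal values ran from 0.532 through 1.30 to 2.71, and 9 of 13 maternal pronuclei were at 0. The log2 differences were 1.81 ± 0.34 (SE; adjusted p = 5.81e-05) with wild-type and 2.08 ± 0.56 (SE; adjusted p = 0.0355) with mutant Kdm5b. The other bins of this 10 were chr18:79200001-79300000, chr2:143400001-143500000, chr6:31100001-31200000, chr12:60100001-60200000 and chr10:91900001-92000000, all without a coding gene, and chr9:97900001-98000000 within Clstn2, a gene of the calsyntenin family of synaptic membrane proteins.

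Among the 10 bins with the smallest p with mutant Kdm5b, log2 differences lay between 2.08 and 2.82 and adjusted p-values between 0.00528 and 0.0158; 6 of the 10 were called with wild-type Kdm5b too. The bin chr12:96700001-96800000, without a coding gene, ran from 0 through 0.558 to 2.42 in paternal and from 0 through 0 to 2.74 in maternal pronuclei with wild-type Kdm5b, which overlap throughout (log2 difference 0.98 ± 0.36 SE, adjusted p = 0.0446). With mutant Kdm5b the 6 paternal pronuclei ran from 0.625 through 1.27 to 1.87 and 12 of the 13 maternal ones were at 0, with a highest value of 0.342. There the groups did not overlap (2.49 ± 0.51 SE, adjusted p = 0.00528), in the comparison by which this bin was picked. The change of its parental difference from mutant to wild-type Kdm5b was -1.51 ± 0.62 (SE, adjusted p = 0.719, limma) and was not called.

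The bin of the epidermal differentiation gene cluster with Sprr2i, Sprr2k, Sprr1b, Sprr3 and Sprr1a, all for small proline-rich proteins of the cornified envelope (chr3:92400001-92500000), ran from 0.789 through 1.82 to 4.74 in paternal pronuclei with mutant Kdm5b, and from 0 through 0 to 1.05 in maternal ones. The log2 difference was 1.31 ± 0.35 (SE; adjusted p = 0.00448) with wild-type and 2.57 ± 0.58 (SE; adjusted p = 0.0119) with mutant Kdm5b. A bin within Ptprd, a receptor tyrosine phosphatase of neurons (chr4:76200001-76300000), had OE of 1.13 to 4.25 in all 6 paternal pronuclei with mutant Kdm5b, but 1 of the 13 maternal pronuclei reached 5.47. Its log2 differences were 1.56 ± 0.35 (SE; adjusted p = 0.000615) with wild-type and 2.60 ± 0.63 (SE; adjusted p = 0.0158) with mutant Kdm5b. A bin within Galntl6, a member of the GalNAc-transferase family (chr8:57900001-58000000), was likewise called in both, at 1.23 ± 0.35 (SE; adjusted p = 0.00814) with wild-type and 2.39 ± 0.55 (SE; adjusted p = 0.0119) with mutant Kdm5b. The bin with Tmem267 (chr13:119500001-119600000) had an expected number of only 20.

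The 400 bins were mostly scattered and formed 326 runs on the chromosomes, of which 276 were single bins. The longest, of 6 bins, was chr14:117100001-117700000 and each bin was overlapped by Gpc6, a very long gene for a glypican, a heparan sulfate proteoglycan of the cell surface. Its mean OE with wild-type Kdm5b ran from 0.888 through 1.32 to 2.02 in paternal pronuclei, against 0 through 0.362 to 1.45 in maternal ones. With mutant Kdm5b it ran from 0.381 through 1.23 to 2.18 in paternal and from 0 through 0.246 to 2.49 in maternal pronuclei, which overlap. All 6 bins were called with wild-type Kdm5b, with log2 differences of 1.10 to 1.66, and none with mutant Kdm5b, where the differences were 0.55 to 1.79 and 4 of the 6 had an unadjusted p under 0.05 (limma). Each of the 6 bins was covered by a domain of the trophectoderm list and not of the inner cell mass list.

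**Figure D3:**
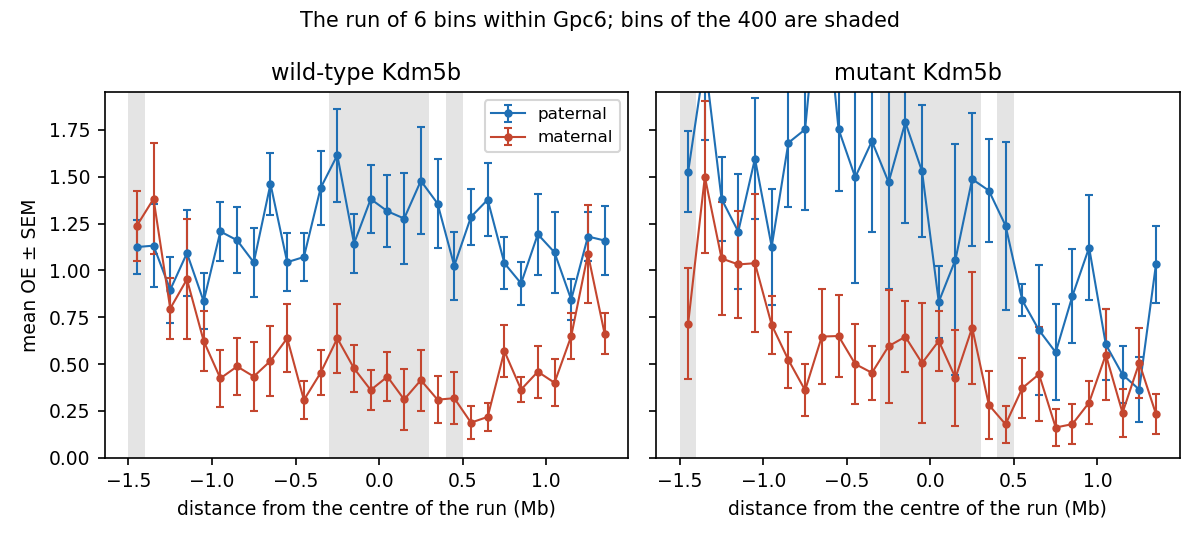
Mean OE ± SEM (y axis) per 100 kb bin against the distance from the centre of the Gpc6 run (x axis, Mb) in paternal and maternal pronuclei with wild-type Kdm5b (n = 19 each) and mutant Kdm5b (n = 6 and 13), with bins of the 400 shaded. The paternal mean lies above the maternal one in 27 of the 29 bins plotted with wild-type Kdm5b and in 28 with mutant Kdm5b, the 6 bins of the run among them; the exceptions are the chosen bin at -1.45 Mb (paternal 1.13, maternal 1.24) and the unchosen one at -1.35 Mb (1.13 and 1.38) with wild-type, and the unchosen bin at 1.25 Mb (0.365 and 0.507) with mutant Kdm5b.

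The other runs of 5 were of different kinds. One, chr16:66200001-66700000, lay beside and at the edge of Cadm2, an adhesion gene of neurons. It had a mean OE of 0.850 ± 0.233 in paternal and 0.564 ± 0.458 in maternal pronuclei with wild-type Kdm5b (SD, n = 19 each), and 1.40 ± 0.257 in paternal (n = 6) and 0.728 ± 0.938 in maternal pronuclei (n = 13) with mutant Kdm5b. None of its 5 bins was called in either (adjusted p 0.0544 to 0.381 with wild-type and 0.148 to 0.554 with mutant Kdm5b, limma), while 3 and 4 of them were higher at an unadjusted p under 0.05. The other, chr14:3200001-3700000, held numbered gene models and D830030K20Rik; expected numbers ran from 4 to 50 in 4 bins and none was found for the fifth, and 1 bin was called with wild-type Kdm5b. Runs of 4 lay at chr8:57900001-58300000 in and beside Galntl6, at chr10:91900001-92300000 without a coding gene, and at chr14:93800001-94200000 at the edge of Pcdh9, a protocadherin.

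Bins near the 400 that were not themselves chosen differed between the parents as well. At 0.1 Mb from a chosen bin, unchosen bins had a mean OE of 1.00 in paternal and 0.642 in maternal pronuclei with wild-type Kdm5b, and 1.22 in paternal and 0.671 in maternal pronuclei with mutant Kdm5b. The mean log2 ratio per bin was 0.56 and 0.71 there. It was 0.29 and 0.46 at 1 Mb and 0.15 and 0.26 at 3 Mb, against 0.12 and 0.14 over all bins. With wild-type Kdm5b the paternal mean stayed close to 1 at each of these distances and the maternal mean carried the slope.

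**Figure D4:**
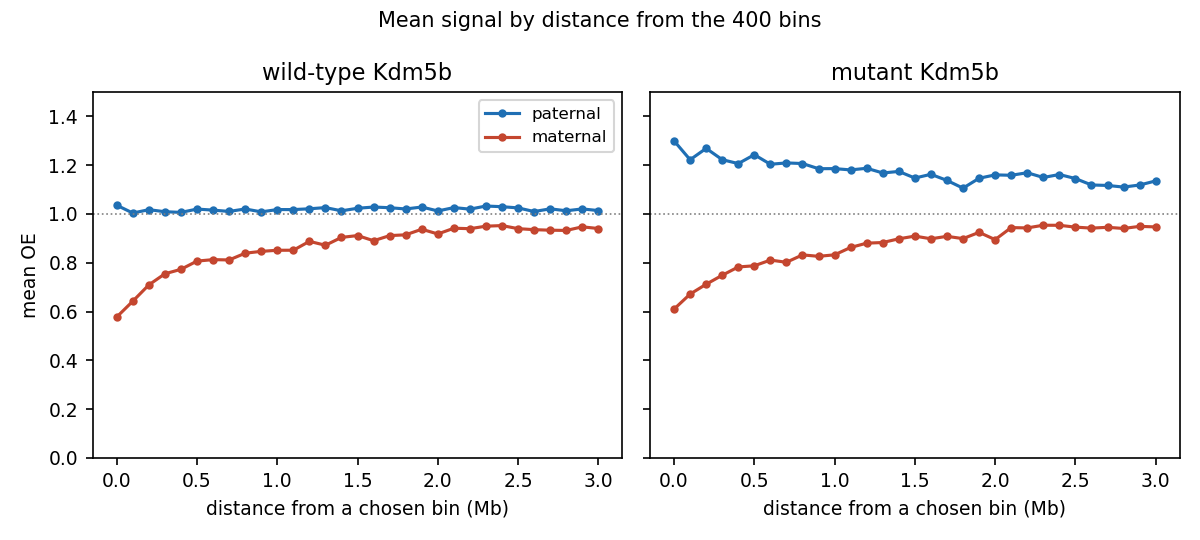
Mean OE (y axis) of bins by distance from the 400 (x axis, Mb; at 0 the 400 themselves, elsewhere bins that were not chosen) in paternal and maternal pronuclei. The maternal means are 0.578 and 0.610 at the chosen bins, with wild-type and mutant Kdm5b, and 0.940 and 0.947 at 3 Mb.

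With wild-type instead of mutant Kdm5b, paternal pronuclei had lower values at more of the 400 bins than at bins in general, but no single bin passed the adjusted threshold. The mean OE in paternal pronuclei was 1.04 ± 0.102 with wild-type (SD, n = 19) and 1.30 ± 0.170 with mutant Kdm5b (SD, n = 6), with ranges that overlap between 1.13 and 1.21. The median log2 ratio of means was -0.28 over the 400 bins and 0.05 over all bins. By limma, 63 of the 400 bins were lower and 15 higher at an unadjusted p under 0.05 (387 passed the filter), against 6.32% and 7.62% of all bins; 0 were called at the adjusted threshold in either direction, by limma (0.0167% of all bins were higher) or by Fisher's exact test.

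In maternal pronuclei the level was 0.578 ± 0.132 with wild-type (SD, n = 19) and 0.610 ± 0.115 with mutant Kdm5b (SD, n = 13), and the ranges overlapped nearly throughout. Of the 400 bins (377 tested), 14 were higher and 13 lower at an unadjusted p, against 7.29% and 2.1% of all bins, and 0 were called by either test; with equal reads 11 were higher and 17 lower, against 5.18% and 2.27% of all bins. The test of whether the parental difference itself changed with Kdm5b (388 tested) called 0 of the 400 bins (1 of all bins, 0.00418%, was called with a smaller difference). At an unadjusted p, 37 had a smaller difference with wild-type Kdm5b and 6 a larger one, against 4.16% and 1.9% of all bins; with equal reads these were 20 and 7, against 3.59% and 2.26%. In whole zygotes, which hold both pronuclei, the mean was 0.887 ± 0.114 with wild-type (SD, n = 14) and 1.10 ± 0.256 with mutant Kdm5b (SD, n = 9), with overlapping ranges. Of the 400 bins (384 tested), 31 were lower and 26 higher at an unadjusted p, against 2.99% and 14.2% of all bins, and 0 were called at the adjusted threshold by limma or Fisher's exact test. With equal reads 34 were lower and 11 higher, against 3.08% and 6.92%. These comparisons share pronuclei with one another and with the parental ones.

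In whole zygotes without Kdm5b the 400 bins were more often above than below the level of Dam alone, the reverse of bins in general. Their mean OE was 1.06 ± 0.0719 with Dam-lamin B1 (SD, n = 19) and 0.699 ± 0.0950 with Dam (SD, n = 46), with 0.926 to 1.21 for Dam-lamin B1 and 0.499 to 0.972 for Dam. By limma 159 of the 400 bins (39.75%; 388 passed the filter) were higher with Dam-lamin B1, against 22.1% of all bins, and 57 were lower, against 37.8%. At an unadjusted p these were 168 and 62, against 23.6% and 41% of all bins. With equal reads the calls were 138 and 25, against 19.5% and 18.1%. The all-bin median log2 difference was -0.36, and the 400 bins stood 0.81 above it. The bins that were higher in paternal pronuclei were not all lamina-enriched by this measure: of the 177 called with wild-type Kdm5b, 58 were above Dam and 31 below it. Of the 10 of these with the smallest p, 2 were above Dam and 4 below it. Prima1's bin was one of the 31, with OE of 0.559 ± 0.573 with Dam-lamin B1 (SD, n = 19) and 1.52 ± 1.27 with Dam (SD, n = 46; log2 difference -1.11, adjusted p = 0.000523).

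Set against the authors' blastocyst domains, 96 of the 400 bins (24.0%) were covered at least 50% by a trophectoderm domain and not by one of the inner cell mass, where 9.47% of all bins were. Domains of both tissues covered 196 (49%, against 50.3% of all bins), of the inner cell mass alone 31 (7.75%, against 8.23%), and 77 were covered by neither (19.25%, against 32%). The parental ratio was above that of all bins of the same class in each class: with wild-type Kdm5b the median log2 ratio was 0.76 in the trophectoderm-only members and 0.14 in all such bins, and 0.79 in members of neither list and 0.22 in all such bins. The members of neither list had a mean OE of 0.728 with Dam-lamin B1 and 0.977 with Dam in whole zygotes, while trophectoderm-only members had 1.13 and 0.609. No test was made of these shares, since neighbouring bins share a domain.

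The 400 bins held fewer coding genes than bins in general. They contained the midpoint of 0.51 protein-coding genes each, against 0.855 over all bins, and 273 (68.25%) contained none, against 55.7%. A coding gene overlapped 204 (51%), against 64.9%. Chromosome 14 held 47, of 1215 bins, of which 25 had an expected number of at least 228; chromosome 11 held 4 of 1191 and chromosome 15 held 4 of 1010. Bins with clusters of small RNA genes, picked out after their values were seen, include a bin with 36 rRNA genes at chr8:123500001-123600000 and a pair of bins with 40 and 20 small nucleolar RNA genes at chr7:59700001-59900000. Their expected numbers were 193, 92 and 16, all under 228, and many of their values were 0 in pronuclei of either parent. In the bin at chr7:59800001-59900000 OE was 0 in 15 of 19 paternal and 17 of 19 maternal pronuclei with wild-type Kdm5b.

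Of 24 gene lists, 18 had no bin among the 400 and 6 had 1 to 4. Since only 400 of all 24022 bins were chosen and many lists hold few bins, an absence says little. Olfactory receptor genes lay in 4 of the 400 (1.11% of 361 bins with such genes) and vomeronasal receptor genes in 2 (1.01% of 199). Neither share is above that of 400 in 24022. The olfactory bin at chr9:40100001-40200000, with Olfr984, Olfr985 and Olfr986, had log2 differences of 0.76 ± 0.34 (SE) with wild-type and 1.54 ± 0.58 (SE) with mutant Kdm5b, and those at chr7:102800001-102900000 (Olfr564, Olfr566, Olfr568 and Olfr569) were 0.28 ± 0.36 and 0.93 ± 0.64; none of these passed. The third named olfactory bin, with a receptor pseudogene at chr3:131800001-131900000, was called with wild-type Kdm5b (1.18 ± 0.35 SE, adjusted p = 0.0115). A vomeronasal bin with Vmn1r152, Vmn1r255 and Vmn1r256 (chr7:22500001-22600000) could not be tested, and one with Vmn2r47 (chr7:9800001-9900000) had a difference of 0.85 ± 0.54 with mutant Kdm5b (SE, adjusted p = 0.492). The keratin bin with Krt31 to Krt35, the hair keratin cluster (chr11:100000001-100100000), was called with wild-type Kdm5b (1.19 ± 0.34 SE, adjusted p = 0.00823) and had 1.27 ± 0.62 (SE, adjusted p = 0.33) with mutant Kdm5b. The bin with Zfp781, a zinc finger gene (chr10:81900001-82000000), had an expected number of 41.

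The bin with Gab1 (chr8:80800001-80900000) was the only one of the 400 with a gene of the list of genes that are silent on the maternal allele through inherited H3K27me3 in mouse embryos or extraembryonic tissue. With wild-type Kdm5b it ran from 0 through 1.09 to 2.50 in paternal and from 0 through 0.319 to 1.29 in maternal pronuclei, and OE reached 1 in 11 of 19 paternal and in 1 of 19 maternal ones. The log2 difference was 1.39 ± 0.34 (SE; adjusted p = 0.00172, limma) with wild-type Kdm5b and 1.56 ± 0.58 (SE; adjusted p = 0.154) with mutant Kdm5b. In whole zygotes without Kdm5b this bin was not called against Dam (log2 difference -0.35 ± 0.29 SE, adjusted p = 0.279, limma). No pronuclei with Dam alone were used, so whether the parents differ in accessibility at the bins of this list was not tested. The other 11 bins of this list were below the rank of the 400 but were mostly higher in paternal pronuclei too: of its 12 bins, 11 were called higher in paternal pronuclei with wild-type Kdm5b, where 14.4% of all bins were, and none lower. The median log2 ratio of means over the 12 bins was 1.08 with wild-type and 0.95 with mutant Kdm5b, against 0.07 and 0.12 over all bins. With mutant Kdm5b limma called none of the 12, where only 0.863% of all bins were called. At an unadjusted p under 0.05, 6 were higher, against 13.2% of all bins. The ratio was above 0 in 10, against 57.1% of all bins. The 29 bins of the list of other imprinted genes had a median of 0.33 with wild-type and 0.11 with mutant Kdm5b. Of these 29, 6 were called higher with wild-type Kdm5b, where 14.4% of all bins were, and 0 with mutant Kdm5b, where 0.863% were.

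Followed over stages by the OE of Dam-lamin B1 alone, the 400 bins stood low in oocytes, at the general level in whole zygotes, low again at the 2-cell and 8-cell stages and above it in ES cells. This is not the course relative to Dam, which was low over these bins too, at 0.699 in zygotes and 0.442 at the 8-cell stage (n = 4). Dam-lamin B1 stood above Dam at both of these stages, with 1.06 and 0.799. The OE values used are non-allelic. Whole zygotes and later cells give both parental copies together, so these levels cannot show the course of either copy. Stages differ in strain, dose and construct level and the cells of a stage were taken as 1 sample, so that no test was made between stages. Dam-lamin B1 mRNA was at 5 ng/µl in oocytes, 10 ng/µl at the 2-cell and 20 ng/µl at the 8-cell stage. Dam mRNA was at 20 ng/µl in oocytes and at 40 ng/µl at the 2-cell and 8-cell stages. In oocytes the mean OE over the 400 bins was 0.487 ± 0.206 with Dam-lamin B1 (SD, n = 56) and 0.617 ± 0.139 with Dam (SD, n = 43), while the other bins averaged 0.891 and 1.00. Oocytes with the 20 ng and 50 ng labels gave 0.601 ± 0.143 (SD, n = 17) and 0.600 ± 0.108 (SD, n = 23). At the 2-cell stage the values were 0.677 ± 0.180 with Dam-lamin B1 (SD, n = 47) and 0.601 ± 0.0876 with Dam (SD, n = 45), and they overlapped widely. The Dam-lamin B1 cells ran from 0.479 through 0.621 to 1.60. At the 8-cell stage they were 0.799 ± 0.0940 (SD, n = 41) and 0.442 ± 0.0825 (SD, n = 4), with 0.630 to 1.07 for Dam-lamin B1 and 0.373 to 0.546 for Dam. ES cells, with Dam-lamin B1 alone, ran from 1.07 through 1.15 to 1.34 (n = 10).

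**Figure D5:**
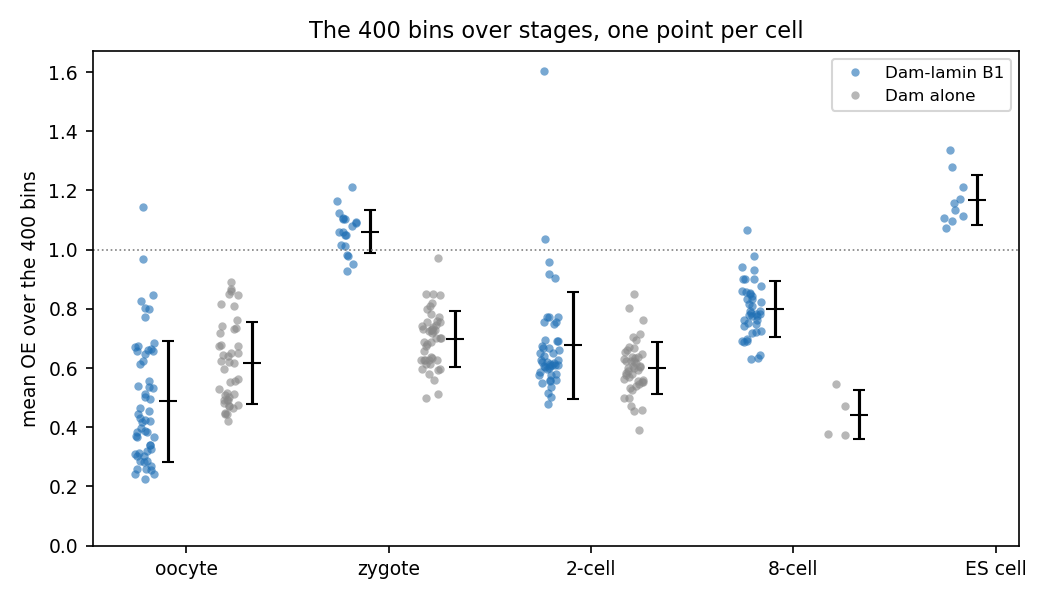
Mean OE over the 400 bins (y axis) in each cell, by stage, with Dam-lamin B1 in blue and Dam alone in grey; bars are mean ± SD and the dotted line is an OE of 1. The Dam-lamin B1 cells lie around 1.06 in zygotes and above 1 in ES cells, and mostly below 1 in oocytes, 2-cell and 8-cell embryos.

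Counted by bin, the group mean with Dam-lamin B1 reached an OE of 1 in 36 of the 400 bins in oocytes (37.6% of all bins did), in 220 in zygotes (41.9%), in 72 at the 2-cell stage (41.3%), in 97 at the 8-cell stage (41.7%) and in 254 in ES cells (43.9%). The most frequent pattern, in 106 of the 400 (26.5%), was a mean of at least 1 in zygotes and ES cells and below 1 in oocytes, 2-cell and 8-cell embryos; 6.59% of all bins had it. The next was 1 or more in ES cells alone (52 bins, 13.0%, against 4.21%). A further 50 (12.5%) were below 1 in all 5 stages, as were 13.4% of all bins. Members under trophectoderm domains alone had a mean of 0.649 at the 8-cell stage and those under domains of both tissues 0.971.

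Individual bins followed different courses. The Alcam bin had a mean OE of 0.434 ± 1.20 in oocytes (SD, n = 56), 1.57 ± 2.02 in zygotes (n = 19), 0.220 ± 0.489 in 2-cell embryos (n = 47), 0.644 ± 0.815 in 8-cell embryos (n = 41) and 0.865 ± 0.592 in ES cells (n = 10). The chr12:96700001-96800000 bin had 0.185 ± 0.446, 1.77 ± 1.23, 0.266 ± 0.472, 0.336 ± 0.690 and 1.14 ± 0.587 in the same order, with 42 of 56 oocytes at 0. The Prima1 bin had 0.410 ± 0.644, 0.559 ± 0.573, 0.620 ± 1.03, 1.34 ± 1.02 and 1.19 ± 0.804. The SDs are as large as most of these means.

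Zygotes under other treatments are given as levels, without a test. The mean OE over the 400 bins was 1.03 ± 0.134 with the DNA polymerase inhibitor aphidicolin (SD, n = 9) and 0.913 ± 0.182 with its solvent DMSO (SD, n = 11). With wild-type Kdm4d, a demethylase of histone H3 lysine 9, it was 1.01 ± 0.241 (SD, n = 12), and with mutant Kdm4d 1.03 ± 0.163 (SD, n = 10). The ranges overlapped in both pairs.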

How the data were processed

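Single pronuclei, oocytes, embryonic cells and ES cells were profiled by DamID. Per the submitters' processing notes, cutadapt and BWA 0.7.12 were used with build mm10. The authors deposited, per the file headers, an observed-over-expected ratio (OE) per cell and 100 kb bin. How they derived the expected number is not stated there. The table holds 512 cells and 24639 bins, and 617 bins without a value were left out. The deposited trophectoderm and inner cell mass lists hold domain intervals with no score. Samples of pooled cells were not analysed here, and 14 cells with contradictory labels entered no group.

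Reads were recovered from the steps of OE: with a tolerance of 0.02 reads, 99.993% to 100% of the non-zero values of each cell were whole. Depth ran from 23563 to 1091107 reads per cell (median 71772). PCR reads carry no molecular identifier. limma 3.58.1 in R 4.3.3 (trend) was fitted on log2(OE + 0.25) over bins above 0 in at least 3 cells, for 7 comparisons, with Benjamini-Hochberg adjustment over all bins tested and a threshold of 0.05, and was tested on simulated data. Tables were made with Python 3.11.15. The 400 bins and the gene lists were chosen with earlier results of these data known. Named bins are the 10 ranked highest, the 10 with the smallest p among those higher in paternal pronuclei with mutant and with wild-type Kdm5b, the 3 longest runs, and those with a gene of a list (at most 3 per list). Genes are assigned by midpoint, from RefSeq on GRCm38.p6. The genome sequence of the bins was not used here. Alternatives were pseudocounts of 1 and 0.1, no filter, a mean OE of at least 0.5, equal reads (32493 per pronucleus with wild-type and 36350 with mutant Kdm5b), Fisher's exact test on cells with OE of at least 1 and a replicate block; those on the scale of each cell, on bins with few expected reads and on maternal replicate 4 were chosen after seeing the data.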

Additional observations from a re-analysis of the deposited data

Results flagged for a closer look

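Groups of 4 to 10 cells were searched for single cells that stood far from the rest, in 14 group-by-measure checks; chance flags about 1 in 20. Maternal pronucleus replicate 4 without Kdm5b had a mean OE of 0.677 over the 400 bins, with 0.109 to 0.350 in the other 9 maternal pronuclei of its group. In the same pronucleus 25.25% of the 400 bins reached an OE of 1. It held 219940 reads. Its part in the choice of the bins is given with the rechosen bins.

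Among zygotes with aphidicolin, 52.5% of the 400 bins reached an OE of 1 in replicate 9, against 33.5% to 42.5% in the other 8. Its mean over the 400 bins was 1.31, also the highest of its group.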

How the results depend on the processing

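Of the 400 bins, 156 were chosen again with the median in place of the mean over cells and 308 with a pseudocount of 1. Without maternal replicate 4 the number was 312, and with OE divided by the mean of the cell 391. A choice among well-covered bins alone keeps all 359 such bins of the 400 by construction.

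The count with mutant Kdm5b, 32 bins called higher, was the least stable: it was 52 and 18 with pseudocounts of 1 and 0.1 (1.35% and 0.411% of all bins), 16 with a mean OE of at least 0.5 (0.35%), 21 with OE divided by the cell mean (0.444%), 2 with equal reads (0.0168%) and 0 with Fisher's exact test (112 at an unadjusted p, 6.98% of all bins, against 186). With wild-type Kdm5b, 177 bins became 54 with equal reads (3.79% of all bins) and 32 with Fisher's exact test (2.28%; 127 at an unadjusted p, 12.4% of all bins, against 245). The causes were not tested.

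Same-numbered pronuclei deviated together little (r of 0.00 to 0.07 over 19 pairs with wild-type and of -0.04 to 0.00 over 6 pairs with mutant Kdm5b). With wild-type Kdm5b the mean r was 0.014 for the same number and -0.00076 for other numbers. Separate nuclei need not deviate together, so these values cannot show whether a number marks a shared mother or day. With a replicate block 183 bins were called with wild-type and 1 with mutant Kdm5b (14.7% and 0.00838% of all bins); in paternal pronuclei with wild-type against mutant Kdm5b 9 were higher and 38 lower at an unadjusted p (3.09% and 4.41% of all bins), and 104 were higher with Dam-lamin B1 than with Dam (15.1%).

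At an unadjusted p, Fisher's exact test gave 3 higher and 16 lower in paternal pronuclei with wild-type against mutant Kdm5b (2.04% and 2.28% of all bins), 5 higher in maternal ones (3.35%), and 6 higher and 17 lower in whole zygotes (4.04% and 1.34%). Maternal pronuclei had 9 higher with a mean OE of at least 0.5 (7.62%). Equal reads gave 20 bins with a smaller parental difference (3.59%) and 11 higher in whole zygotes (6.92%), and well-covered bins alone gave 3 with a larger difference (1.87%). Below Dam, 57 bins became 25 with equal reads (18.1%; 36 at an unadjusted p, 25.2%) and 36 with Fisher's exact test (21.4%). Of the named bins, 4 changed sign once: chr14:42800001-42900000 (0.63, equal reads), chr16:66400001-66500000 (-0.0636, equal reads) and chr7:102800001-102900000 (-0.11, the difference in the share of pronuclei with OE of at least 1) with wild-type Kdm5b, and chr7:9800001-9900000 (-0.0748, replicate block) with mutant Kdm5b.

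At a median of 83034.5 reads per pronucleus over 24022 bins, many values are 0 or rest on few reads.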
